A study of Arabidopsis thaliana with 6 samples.

Results

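RNA helicases are enzymes that use ATP to open or remodel RNA duplexes and to strip proteins from RNA. Nearly every step in the life of a transcript needs them: splicing, export from the nucleus, translation, storage, decay and the making of ribosomes. Most belong to the DEAD-box or DEAH-box families, named for the amino acids of their ATP-hydrolysing motif. In pollen the transcriptionally active vegetative nucleus and the 2 sperm cells it accompanies lie in one grain. The helicases described here are all genes whose description in the expression table held the words RNA helicase, DEAD box, DEAD-box or DEA(D/H). Genes described as initiation factors and 4 further genes (AT3G03300, AT1G01040, AT3G43920 and AT5G20320) were left out. This rule found 69 of the 27655 genes and used no measured value.

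The data are 6 RNA-seq libraries of mature Arabidopsis thaliana pollen, 3 from sperm cells (SCs) and 3 from vegetative nuclei (VN). Each was made with the full-length Smart-seq2 protocol from 500 particles collected by fluorescence-activated sorting. All plants were of 1 transgenic line, wild type by its genotype label, which carries MGH3p::MGH3-GFP (a histone tagged under its sperm promoter) and ACT11p::H2B-mRFP (a histone tagged under an actin promoter active in the vegetative cell). They had 8 weeks of short days (8 h of light) before long days (16 h of light) brought on flowering, and no treatment was given. The SC libraries come from whole cells and the VN libraries from nuclei, so a difference between cell types and one between cell and nucleus cannot be told apart here. Likewise, fewer transcripts of a gene and a smaller share of the RNA cannot be told apart in values that sum to a fixed total.

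Gene levels are given in TPM, a share of all transcripts scaled so that each library sums to 1000000. TPM keeps no read number, so the depth behind a value is not known and counting error is left out. Between 12418 and 15112 genes were above 0 TPM in an SC library and between 10202 and 15289 in a VN library, and a gene at 0 is only said to be listed at 0. The 10 highest genes took 42.8% to 49.9% of an SC library but 12.7% to 15.2% of a VN library. The labels held against their markers. The summed level of 10 sperm cell genes ran from 24073 to 27344 TPM in SCs and from 336 to 957 TPM in VN, and none of them was at 0 throughout either group. For 14 vegetative cell genes the sums were 16756 to 18076 TPM in VN and 364 to 505 TPM in SCs, with 1 gene at 0 in every SC library. The other group's list thus stood at 1.29% to 3.68% of its SC mean in VN and at 2.12% to 2.93% of its VN mean in SCs. Of 7 green tissue genes, 1, the Rubisco small subunit gene RBCS3B, was at 339 to 515 TPM in SCs and 2.40 to 4.70 TPM in VN, and the list's sum ran from 339.9 to 515 TPM in SCs and from 3.11 to 8.49 TPM in VN. The 5 tapetum genes summed to at most 2.21 TPM in any library, with 2 at 0 in all SC libraries and 3 at 0 in all VN libraries. Whether carried-over RNA makes up part of these marker levels, or of the low values below, was not tested.

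The description was first set against the sequences, because the words in a description do not prove an enzyme. The longest coding sequence of each member was read from the TAIR10.1 reference, translated, and searched for the letters D-E-x-D or D-E-x-H, where x is alanine, valine, isoleucine or cysteine. Of the 69 members, 56 held such a run: DEAD in 29, DEAH in 14, DEIH in 6, DEVH in 3, DECD in 2 and DEVD in 2. A run of letters anywhere in the protein is a description and need not be the catalytic motif. The coding stretches below show the run, in capitals, in members whose levels differed most between SCs and VN or that stand for a family.

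RH11 (DEAD, codon 310): ttagctctaGATGAGGCAGACaggatgctg
RH40 (DEAD, codon 588): cttgtgcttGACGAGGCAGACcgaatgctt
TIF4A-3 (DEAD, codon 190): tttgttcttGATGAAGCTGATgaaatgctc
STRS1 (DEAD, codon 272): gtcgtattgGATGAAGCAGATcgaatgctt
RH6 (DEAD, codon 303): cttgtaatgGATGAGGCCGACaagcttttg
RH12 (DEAD, codon 273): cttgtaatgGATGAGGCCGACaagcttttg
RH15 (DECD, codon 197): tttattcttGATGAATGTGATaaaatgctc
UAP56b (DECD, codon 197): tttattcttGATGAGTGTGATaaaatgctc
ESP3 (DEAH, codon 524): gttattgtgGATGAGGCACATgaaaggacc
AT3G26560 (DEAH, codon 635): atcatgcttGATGAAGCTCACgagcggaca
SKI2 (DEVH, codon 472): gttatatttGATGAAGTTCACtatgtcaat
AT5G05130 (DEAH, codon 437): ataattcttGATGAGGCACACaccattaag

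RH6 and RH12 share all of the bases shown, although the genes lie on different chromosomes. None of the letters was found in 13 members. Among them 9 have coding sequences of only 88 to 204 codons, whereas those of the other 60 members run from 368 to 1459 codons. These 9 are called short members here and are described apart, since they are too short for the helicase core that their description names. The remaining 4 without the letters were RH34, EDA15, RH1 and UPF1, of which UPF1 and EDA15 are known helicases of other families. A further 6 members are known for work on DNA (AT5G05130, RAD5, RECQL5, RecQl3, RECG and FANCM) and are also kept apart.

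With an average of at least 1 TPM as the mark of an expressed gene, 25 of the 69 were expressed in SCs and 30 in VN. These are 36.2% and 43.5% of the members, where 26.9% and 33.7% of all 27655 genes were expressed. Of these, 15 were expressed in both, 10 in SCs but not VN, 15 in VN but not SCs, and 29 in neither. In all 6 libraries 7 members were listed at 0, among them the mitochondrial PMH2 and the ribosome-related RH29. The summed TPM of all 69 was 824, 750.1 and 851 in SC replicates 1, 2 and 3. In VN it was 1484, 1217 and 982, so the VN sums lay above the SC sums. Without the short members the sums were 789, 719 and 830 TPM in SCs and 1010, 875 and 660 TPM in VN, and the groups overlapped.

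A few genes carried these sums. In each SC library the 3 highest members were AT5G05130, DRH1 and FANCM, which held 63.3%, 61.6% and 65.5% of the summed helicase TPM. In each VN library they were DRH1, the short member AT5G57000 and RH11, with 66.0%, 70.1% and 64.7%. DRH1, a DEAD-box protein of the DDX5 kind, was thus the member common to both. Its share was 23.5%, 19.4% and 23.2% in SCs and 25.7%, 27.8% and 25.1% in VN.

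**Figure D1:**
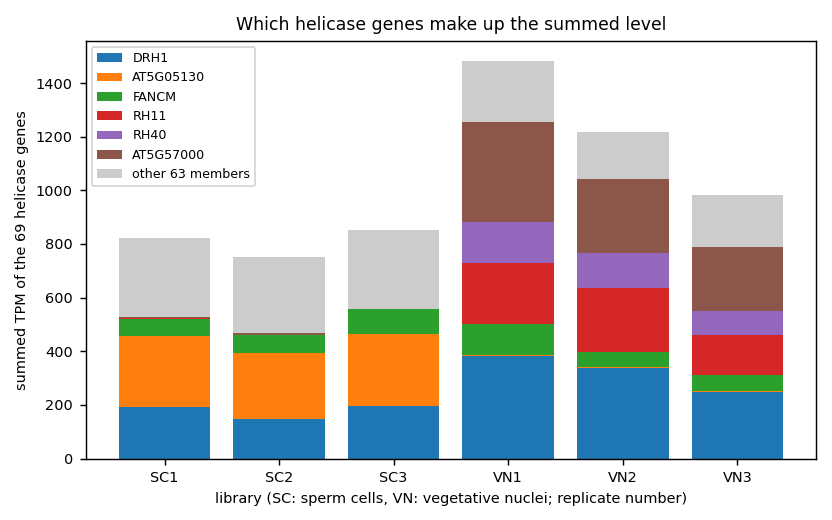
Summed TPM (y axis) of the 69 helicase genes in each library (x axis; SC, sperm cells; VN, vegetative nuclei), as stacked bars split into 6 named genes and the other 63. DRH1 is present in all bars at 146 to 382 TPM. AT5G05130 fills much of the SC bars, and RH11, RH40 and the short member AT5G57000 fill much of the VN bars.

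Differences between the cell types were tested with limma on log2(TPM + 1), over the 10955 genes with at least 1 TPM in at least 2 libraries. They are given as log2 fold changes, SC minus VN, a scale that understates the change of low genes. A gene was called at a Benjamini-Hochberg adjusted p under 0.01 together with a log2 fold change over 1 in size, and all adjusted p values below come from this two-sided test. The filter passed 36 of the 69 members, and the other 33 (47.8%, against 60.4% of all genes) reached at most 4.35 TPM in any library. Of the 36, 13 were called higher in SCs, against a background of 29.2% of all tested genes called in that direction. Another 9 were called higher in VN, against a background of 35.6%. As shares of the tested members these were 36.1% and 25.0%, and 14 members were not called, where 64.9% of all tested genes were called in either direction. Since a member high in 1 cell type passes the filter more easily, these counts do not describe all 69. The libraries of the 2 cell types did not overlap for 30 of the 36, where 77.3% of all tested genes had libraries that did not overlap. The median log2 fold change was -0.06 over the 36 members and -0.55 over all tested genes.

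That median of all genes depends on the scaling of the libraries. It moved to -0.13 with quantile normalization, to -0.03 with each library centred on its median and to 0.07 with the 10 highest genes of each library removed. The median of the tested members moved with it, to 0.46, 0.46 and 0.56. The balance of all calls also turned. In the same order 34.5%, 35.5% and 31.7% of all tested genes were called higher in SCs and 32.7%, 30.5% and 28.1% higher in VN. Under these scalings 14, 15 and 14 members were called higher in SCs and 10, 8 and 9 higher in VN. Each of the 22 called members kept its direction in all 14 alternative settings, including these, and 15 (8 higher in SCs and 7 higher in VN) also kept their call in all of them. Calls lost without a library are given beside the gene, and the others in the account of the alternatives.

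**Figure D2:**
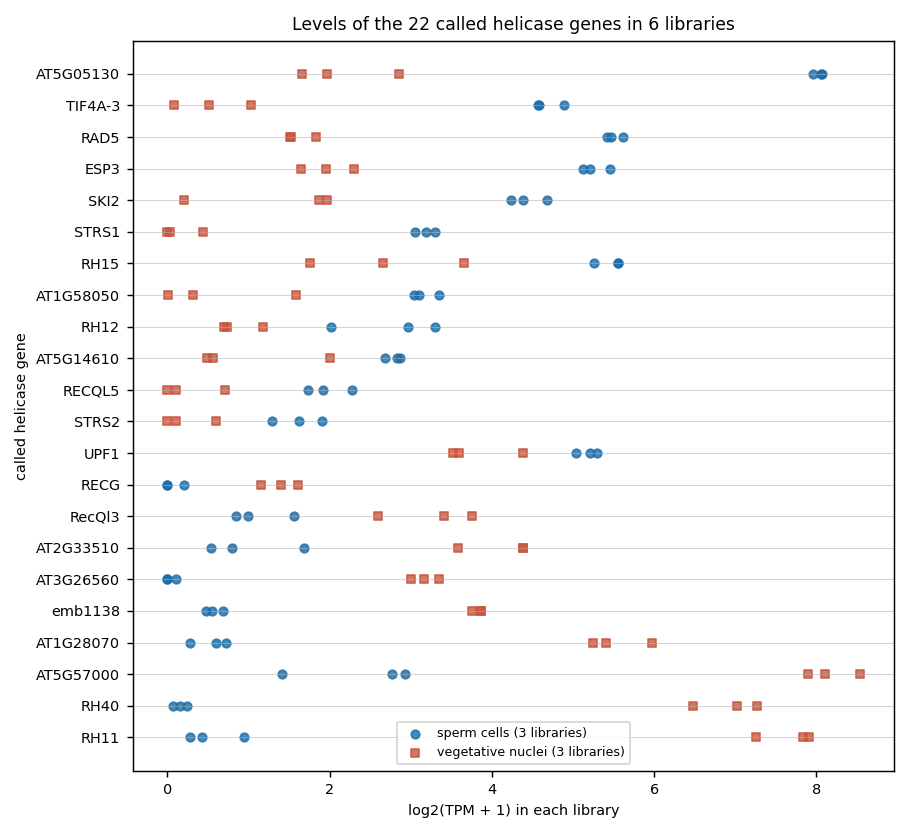
Level of each of the 22 called helicase genes (y axis) as log2(TPM + 1) (x axis) in the 3 SC libraries (circles) and the 3 VN libraries (squares). In every gene the circles and squares are apart, most widely for RH11 and RH40 (high in VN) and AT5G05130 (high in SCs). AT5G57000, AT1G28070 and AT2G33510 are short members.

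Of the 2 translation-related members, both tested, 1 was called in each direction, beside 29.2% (SC) and 35.6% (VN) of all tested genes. RH11 (AT3G58510, chromosome 3, 21639978 to 21643795) is a DEAD-box protein related to yeast Ded1, which helps ribosomes scan the leader of an mRNA. It was at 228, 239.8 and 152 TPM in VN replicates 1, 2 and 3 and at 0.931, 0.341 and 0.208 TPM in SCs. All VN libraries lay far above all SC libraries, and the difference was -7.12 on the log2 scale (standard error, SE, 0.30, adjusted p = 4.04e-07), the lowest of the 36. The SC values are 0.239% of the VN mean as an average, below the share at which the sum of the vegetative marker list appeared in SCs. Single vegetative marker genes varied more, from 0.174% (RBOHJ) to 8.604% (ACT11) of their VN mean in SCs. A further one, MYB120, was listed at 0 in every SC library. RH11 thus lay within the spread of the single markers. TIF4A-3 (AT1G72730, chromosome 1, 27377759 to 27380182) resembles eIF4A, the helicase that loads mRNA onto the small ribosomal subunit. It was at 22.7, 22.9 and 28.7 TPM in SCs and at 0.430, 0.0562 and 1.04 TPM in VN. No SC library came near a VN library, and the log2 fold change was 4.14 (SE 0.33, adjusted p = 1.03e-05).

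The 2 closest relatives of RH11 are not members by description and were looked up from a list of related genes. RH52 was at 15.9, 13.8 and 12.9 TPM in SCs and 27.8, 31.1 and 29.0 TPM in VN, which is higher in every VN library but not called (log2 fold change -0.996, adjusted p = 0.00396). RH37 was listed at 0 in all SC libraries and was at 9.07, 20.4 and 24.2 TPM in VN (log2 fold change -4.13, SE 0.40, adjusted p = 2.88e-05). Within the summed TPM of the 3 genes RH52 held 94.5%, 97.6% and 98.4% in SCs. In VN it held 10.5%, 10.7% and 14.1%, and RH11 held 86.1%, 82.3% and 74.1%. The leading gene of the trio therefore differed between the cell types in every library. Their coding sequences are 80.2% to 85.0% identical, with identical runs of at most 47 bases. RH37 also overlaps the gene AT2G42530 on the opposite strand by 468 bases, which libraries without strand cannot tell apart. The same holds for RH52, which overlaps AT3G58580 by 215 bases, and for RH11, which overlaps AT3G58520 by 26 bases.

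**Figure D3:**
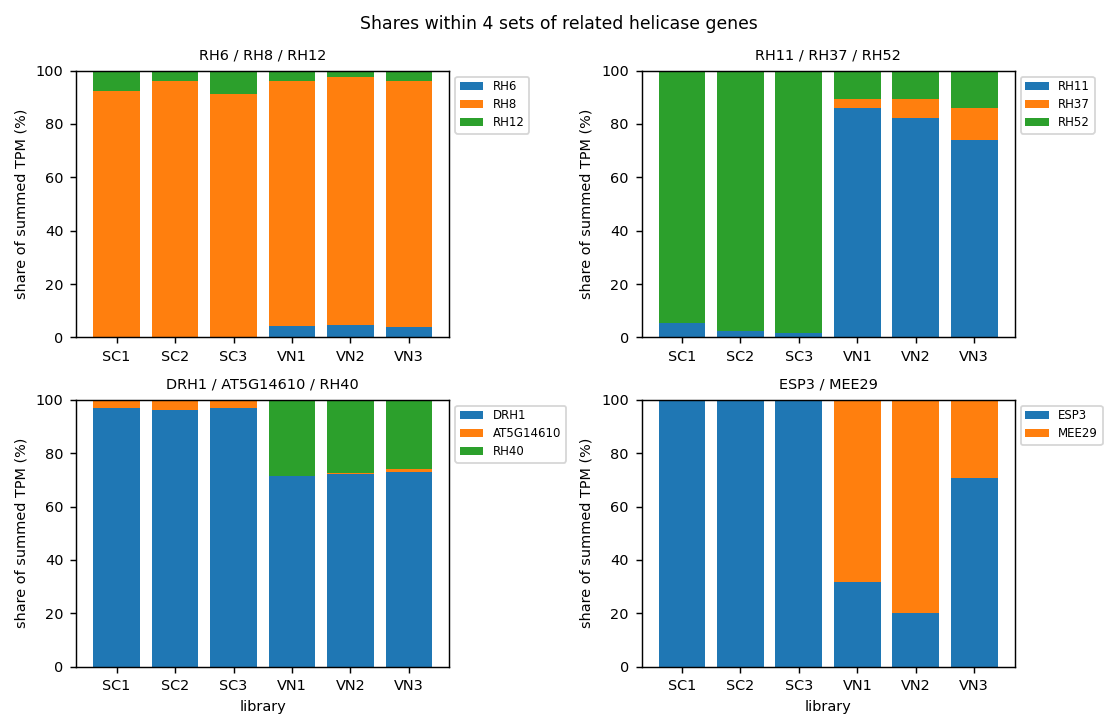
Share of the summed TPM (y axis, percent) held by each gene of 4 sets of related helicases in each library (x axis; SC, sperm cells; VN, vegetative nuclei). RH8 holds over 91% of its set in all 6 libraries, the leading gene of RH11/RH37/RH52 changes from RH52 to RH11, RH40 appears beside DRH1 in VN, and MEE29 holds 29.5% to 79.9% of its pair with ESP3 in VN.

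Export and the exon junction were represented by 3 members. RH15 and UAP56b encode UAP56, which joins spliced mRNA to the export machinery and also acts in splicing. RH15 (AT5G11170, chromosome 5, 3553096 to 3557018) was at 45.8, 46.1 and 37.2 TPM in SCs and 11.6, 5.30 and 2.39 TPM in VN (log2 fold change 2.76, SE 0.46, adjusted p = 0.000693). UAP56b was far lower, at 1.49, 3.25 and 1.64 TPM in SCs and 1.12, 0 and 0.200 TPM in VN. Its log2 fold change of 1.15 (adjusted p = 0.0313) was not called, though it passed under the 3 other scalings (adjusted p = 0.00459 to 0.00679) and without VN replicate 1 (0.00753). RH15 held 91.2% to 100% of the pair's TPM in the 6 libraries. RH34, a relative of eIF4A-III, reached 0.0495 TPM at most.

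The split between RH15 and UAP56b is uncertain, because their coding sequences are 97.2% identical. The longest run they share is 176 bases, from position 259 to 434 of both coding sequences, and is longer than the 150-base reads. A read from within it fits either gene, so the run is shown here.

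RH15 and UAP56b, shared: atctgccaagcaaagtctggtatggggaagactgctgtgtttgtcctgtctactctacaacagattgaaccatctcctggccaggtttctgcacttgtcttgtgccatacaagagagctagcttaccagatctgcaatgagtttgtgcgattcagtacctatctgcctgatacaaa

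Of the 4 helicases of mRNA decay and storage, all tested, 3 were called higher in SCs and none higher in VN, beside 29.2% and 35.6% of all tested genes. Of the 3, SKI2 alone was called in every setting. UPF1 is the central factor of nonsense-mediated decay, which removes transcripts with early stop codons. It was at 35.9, 31.7 and 38.2 TPM in SCs and 19.9, 11.1 and 10.4 TPM in VN. The SC libraries were all higher, by 1.34 on the log2 scale (SE 0.30, adjusted p = 0.00346). That call was lost without any of the SC replicates or without VN replicate 2, when the adjusted p was 0.011 to 0.0182. SKI2 (AT3G46960), the helicase that feeds mRNA to the cytoplasmic exosome, was at 19.9, 17.9 and 24.7 TPM in SCs and 0.155, 2.65 and 2.91 TPM in VN. It rose by 3.09 (SE 0.49, adjusted p = 0.000541) in SCs and was called in every setting.

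RH6 and RH12 belong with RH8 to the DEAD-box proteins of processing bodies, the granules in which mRNAs are stored untranslated or decapped. RH12 was at 6.81, 3.04 and 8.81 TPM in SCs and 1.25, 0.623 and 0.667 TPM in VN (log2 fold change 1.89, SE 0.40, adjusted p = 0.00297). Its call was lost without SC replicate 1 (adjusted p = 0.0199) or SC replicate 3 (0.0174). RH6 was listed at 0 in all SC libraries and was at 1.35, 1.32 and 0.691 TPM in VN. It narrowly missed the call (log2 fold change -1.07, SE 0.31, adjusted p = 0.0129), and it passed as higher in VN without VN replicate 3 (0.00265), with a pseudocount of 0.1 (0.00126) or without the trend (0.00652).

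RH8 (AT4G00660) falls outside the description words but is by far the most abundant of the trio, at 83.6, 76.7 and 93.7 TPM in SCs and 30.4, 25.8 and 16.5 TPM in VN (log2 fold change 1.80, SE 0.27, adjusted p = 0.000383). It held 91.4% to 96.2% of the trio's TPM in every library. RH12 held 3.81% to 8.59% in SCs and 2.24% to 3.804% in VN, which only just do not overlap. RH6 held 4.08%, 4.77% and 3.86% in VN replicates 1, 2 and 3, beside 3.80%, 2.24% and 3.73% for RH12. The leading gene of the set thus did not differ. Which minor gene was ahead in VN is uncertain, since both lay at 0.623 to 1.35 TPM there. Their coding sequences are 85.2% identical. RH8 overlaps the gene AT4G00670 on the opposite strand by 422 bases, and the libraries carry no strand.

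Nuclear RNA surveillance uses MTR4 and HEN2, helicases that hand nuclear RNA to the exosome, MTR4 in the nucleolus and HEN2 in the nucleoplasm. MTR4 was at 4.50, 1.45 and 1.93 TPM in VN and 0.509, 0.167 and 0.190 TPM in SCs. The groups did not overlap, yet the log2 fold change of -1.41 (SE 0.39, adjusted p = 0.0108) was not called. Without VN replicate 2 it was (adjusted p = 0.00488), as it was without the trend (0.00831). MTR4 also passed with the filter in at least 3 libraries (0.00509) or with a pseudocount of 0.1 (0.00876). HEN2 was at 0, 0.585 and 0.404 TPM in SCs and 0, 0.321 and 1.03 TPM in VN and was too low to test.

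Splicing helicases drive the spliceosome from one state to the next and, at the end, take it apart. Of 8 members 5 were tested, 1 called higher in SCs and 1 higher in VN, beside 29.2% and 35.6% of all tested genes. ESP3 (AT1G32490, chromosome 1, 11742006 to 11749788), which resembles yeast Prp2, the helicase that activates the spliceosome, was at 34.0, 42.8 and 35.9 TPM in SCs and 2.13, 3.93 and 2.89 TPM in VN. Every SC library was more than 8 times every VN library, with a log2 fold change of 3.29 (SE 0.28, adjusted p = 1.37e-05). AT3G26560 (chromosome 3, 9749493 to 9753855), which resembles yeast Prp22, the helicase that releases the spliced mRNA, showed the opposite. It was at 7.99, 9.17 and 6.98 TPM in VN and listed at 0, 0 and 0.0759 TPM in SCs (log2 fold change -3.13, SE 0.29, adjusted p = 2.3e-05).

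The other tested splicing members were not called. EMB3011, a relative of yeast Prp16, was at 8.34, 4.07 and 13.4 TPM in SCs and 8.09, 21.3 and 22.9 TPM in VN, which overlap (log2 fold change -0.95, adjusted p = 0.117). AT3G62310 and AT2G47250 are relatives of yeast Prp43, which dismantles the spliceosome. The first was at 4.04, 7.75 and 1.93 TPM in SCs and 12.4, 19.7 and 9.70 TPM in VN (log2 fold change -1.51, adjusted p = 0.0159). Its libraries did not overlap. The second was at 1.05, 0.577 and 0.203 TPM in SCs and 0.363, 0.0649 and 2.58 TPM in VN, with no stable direction. AT3G62310 held 79.0% to 99.7% of the pair in all libraries, with the 2 groups overlapping.

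ESP3 has a relative outside the description words, MEE29, at 0.101, 0.107 and 0.185 TPM in SCs and 4.57, 15.6 and 1.21 TPM in VN (log2 fold change -2.38, SE 0.66, adjusted p = 0.0112, not called). ESP3 held 99.5% to 99.8% of the pair's TPM in SCs. In VN it held 31.8%, 20.1% and 70.5%, so the shares did not overlap but varied widely among the VN libraries. The coding sequences are 84.3% identical, with no identical run over 38 bases.

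The DDX5-like members are DEAD-box proteins related to human DDX5, which acts in transcription and RNA processing. DRH1 (AT3G01540), the most abundant helicase gene when both cell types are considered, was at 193, 146 and 197 TPM in SCs and 382, 339 and 247 TPM in VN. The VN libraries were all higher, but the log2 fold change was only -0.84 (SE 0.22, adjusted p = 0.00888) and was not called. It turned to 0.21 under quantile normalization and reached the call without VN replicate 3 (log2 fold change -1.02, adjusted p = 0.00315), so its direction depends on the scaling. RH40 (AT3G06480, chromosome 3, 1985338 to 1990245) was at 152, 129 and 87.9 TPM in VN and 0.0496, 0.184 and 0.115 TPM in SCs. This was the second lowest log2 fold change of the members, -6.76 (SE 0.29, adjusted p = 4.19e-07).

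AT5G14610, whose coding sequence is 82.8% identical to that of DRH1, went the other way, at 6.30, 5.42 and 6.11 TPM in SCs and 0.478, 0.407 and 3.00 TPM in VN. Its log2 fold change of 1.77 (SE 0.45, adjusted p = 0.0069) was called, but not in 7 of the 14 alternatives. Leaving out any of the SC replicates, VN replicate 1 or VN replicate 2 gave adjusted p of 0.0219 to 0.035. Within the trio DRH1 held 96.3% to 96.9% of the TPM in SCs and 71.4% to 73.1% in VN. RH40 held 26.1% to 28.5% in VN and 0.0249% to 0.121% in SCs. A single scaling factor per library leaves these shares as they are, which quantile normalization does not. RH20, a further DDX5-like gene, reached 0.206 TPM at most, while its relative RH30 was at 22.5, 21.1 and 13.1 TPM in SCs and 1.88, 3.35 and 0.761 TPM in VN (log2 fold change 2.79, SE 0.40, adjusted p = 0.000329).

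Helicases of ribosome biogenesis, which unwind precursor ribosomal RNA in the nucleolus, numbered 11, of which 8 stayed under the filter, as did 60.4% of all genes. These 8 were at 1.39 TPM or less in every library. Of the 3 tested, 1 was called, where 64.9% of all tested genes were called in either direction. This was STRS1 (AT1G31970), also known in Arabidopsis as a repressor of stress-responsive genes. It was at 8.86, 8.08 and 7.33 TPM in SCs and 0.359, 0 and 0.0186 TPM in VN. It was called higher in SCs in every setting (log2 fold change 3.02, SE 0.30, adjusted p = 3.55e-05). RH36, which is needed for the female gametophyte, was listed at 0 in all SC libraries and was at 4.12, 0.834 and 1.58 TPM in VN. Its log2 fold change of -1.53 (adjusted p = 0.0106) was not called, and without VN replicate 2 it was (0.00242). RH36 also passed with quantile normalization (0.00784), without the trend (0.00881) or with a pseudocount of 0.1 (0.00154), but not under the other scalings. RH36 overlaps the gene AT1G16270 on the opposite strand by 627 bases, and libraries without strand cannot tell the 2 apart. RH49 was at 0.234, 0 and 0 TPM in SCs and 4.23, 0.0397 and 2.99 TPM in VN (log2 fold change -1.38, adjusted p = 0.063, and 0.000511 without VN replicate 2). Its values are uncertain, since 98.4% of the aligned coding bases match RH55, which reached 0.817 TPM.

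Organelle helicases showed 1 call among 3 tested of 8 members, where 64.9% of all tested genes were called in either direction. The gene emb1138 (AT5G26742), also called RH3, serves the splicing of chloroplast group II introns and chloroplast ribosome assembly. It was at 13.6, 13.5 and 12.5 TPM in VN and 0.394, 0.466 and 0.612 TPM in SCs. Replicates agreed closely within each cell type, and the log2 fold change was -3.25 (SE 0.27, adjusted p = 1.33e-05). A neighbour on the opposite strand, AT5G26717, overlaps it by 440 bases. EDA15, the mitochondrial SUV3 helicase, was at 2.01, 0.643 and 5.92 TPM in VN and 0, 0.263 and 0 TPM in SCs, a log2 fold change of -1.59 that was not called (adjusted p = 0.0233, and 0.00319 without VN replicate 2). ABO6, a mitochondrial splicing helicase, was at 1.26, 0.369 and 2.48 TPM in SCs and 0.150, 0 and 0 TPM in VN (log2 fold change 1.07, adjusted p = 0.0386, and 0.00718 without SC replicate 2). With median centring ABO6 also passed as higher in SCs (0.00642). PMH1 and PMH2, which act on mitochondrial introns, reached 0.121 and 0 TPM.

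Members known for work on DNA gave the strongest signal on the SC side. AT5G05130 (chromosome 5, 1512082 to 1515166), a RAD5-like protein described as a DNA/RNA helicase, was at 265, 247 and 268 TPM in SCs and 2.91, 2.15 and 6.21 TPM in VN. It was the highest helicase gene of each SC library, and its log2 fold change of 5.87 (SE 0.33, adjusted p = 1.34e-06) was the highest of the 36. In VN it stood at 1.44% of its SC mean, within the range at which the sperm marker list appeared there. RAD5 (AT5G22750), a translocase of post-replication DNA repair, was at 48.2, 41.8 and 43.1 TPM in SCs and 1.87, 2.57 and 1.84 TPM in VN (log2 fold change 3.88, SE 0.25, adjusted p = 3.02e-06). Its VN mean was 4.72% of its SC mean, above that range of the list's sum. Single sperm marker genes varied more, from 0.576% (GEX2) to 7.82% (ZAT2) of their SC mean in VN.

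The RecQ helicases, which unwind recombination intermediates, moved in opposite directions. RECQL5 was at 2.78, 2.32 and 3.83 TPM in SCs and 0.0744, 0 and 0.636 TPM in VN (log2 fold change 1.70, SE 0.35, adjusted p = 0.00223). It overlaps AT1G27890 on the opposite strand by 231 bases. RecQl3 was at 12.5, 9.61 and 5.07 TPM in VN and 1.95, 0.797 and 0.998 TPM in SCs (log2 fold change -2.12, SE 0.40, adjusted p = 0.0014). Without SC replicate 2 or SC replicate 3 its call was lost (adjusted p = 0.0122 and 0.012). RECG, which guards organelle DNA, was at 1.64, 1.22 and 2.06 TPM in VN and 0.149, 0 and 0 TPM in SCs. Its log2 fold change of -1.32 (SE 0.31, adjusted p = 0.00445) was lost without SC replicate 2 (0.0105), and 380 bases of it overlap AT2G03995 on the opposite strand. FANCM, which limits meiotic crossovers, was at 63.3, 68.5 and 91.7 TPM in SCs and 119, 56.2 and 57.4 TPM in VN. Here the ranges overlapped, with a log2 fold change of 0.02 (SE 0.33, adjusted p = 0.962), although it was among the 3 highest members in SCs.

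Of the 6 remaining DExH proteins 1 was tested, and of the 6 unassigned members 2 were. They gave 2 calls, both higher in SCs, beside 29.2% (SC) and 35.6% (VN) of all tested genes. AT1G58050 was at 7.25, 9.16 and 7.61 TPM in SCs and 0.241, 2.01 and 0.0083 TPM in VN (log2 fold change 2.53, SE 0.45, adjusted p = 0.00103). Its neighbour AT1G58060, 84.7% identical in coding sequence, was at 0.110, 0.0388 and 0.181 TPM in SCs and 0.561, 0.0562 and 3.04 TPM in VN. AT1G58050 held 97.7% to 99.6% of the pair in SCs but 30.0%, 97.3% and 0.272% in VN, where both were low. STRS2, a relative of STRS1 in its effect on stress genes, was at 2.09, 1.45 and 2.75 TPM in SCs and 0.521, 0 and 0.0775 TPM in VN. It was called (log2 fold change 1.37, SE 0.34, adjusted p = 0.00632), but not without SC replicate 1 (0.0159), SC replicate 3 (0.015), VN replicate 2 (0.0102) or VN replicate 3 (0.0102).

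STRS2 lies next to its close relative RH26, which is no member by description and far more abundant. RH26 was at 181, 133 and 171 TPM in SCs and 3.12, 3.14 and 2.49 TPM in VN (log2 fold change 5.37, SE 0.24, adjusted p = 4.74e-07). The coding sequences are 88.9% identical with a run of 75 identical bases, and STRS2 held 1.08% to 1.59% of the pair's TPM in SCs. How far reads of RH26 enter the STRS2 values was not tested.

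The 9 short members hold 3 of the 9 genes called higher in VN and none of the 13 called higher in SCs. AT5G57000 (187 codons) was at 370, 275 and 237 TPM in VN and 6.63, 5.82 and 1.67 TPM in SCs (log2 fold change -5.81, SE 0.42, adjusted p = 5.41e-06). AT1G28070 (176 codons) was at 61.8, 41.5 and 37.0 TPM in VN and 0.218, 0.519 and 0.645 TPM in SCs (log2 fold change -5.01, SE 0.31, adjusted p = 2.31e-06). AT2G33510 (204 codons) was at 19.8, 10.9 and 19.9 TPM in VN and 2.20, 0.454 and 0.739 TPM in SCs (log2 fold change -3.11, SE 0.41, adjusted p = 0.000177). All 3 were far higher in each VN library. AT4G30010 (90 codons) was at 25.9, 23.1 and 18.6 TPM in SCs and 19.4, 14.7 and 27.2 TPM in VN, with no difference called (log2 fold change 0.17, adjusted p = 0.615). The other 5 stayed under the filter. Without the short members, 13 of 32 tested members were called higher in SCs and 6 higher in VN. Over all tested genes the shares were 29.2% and 35.6%, and other scalings moved them to 31.7% to 35.5% and 28.1% to 32.7%.

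**Figure D4:**
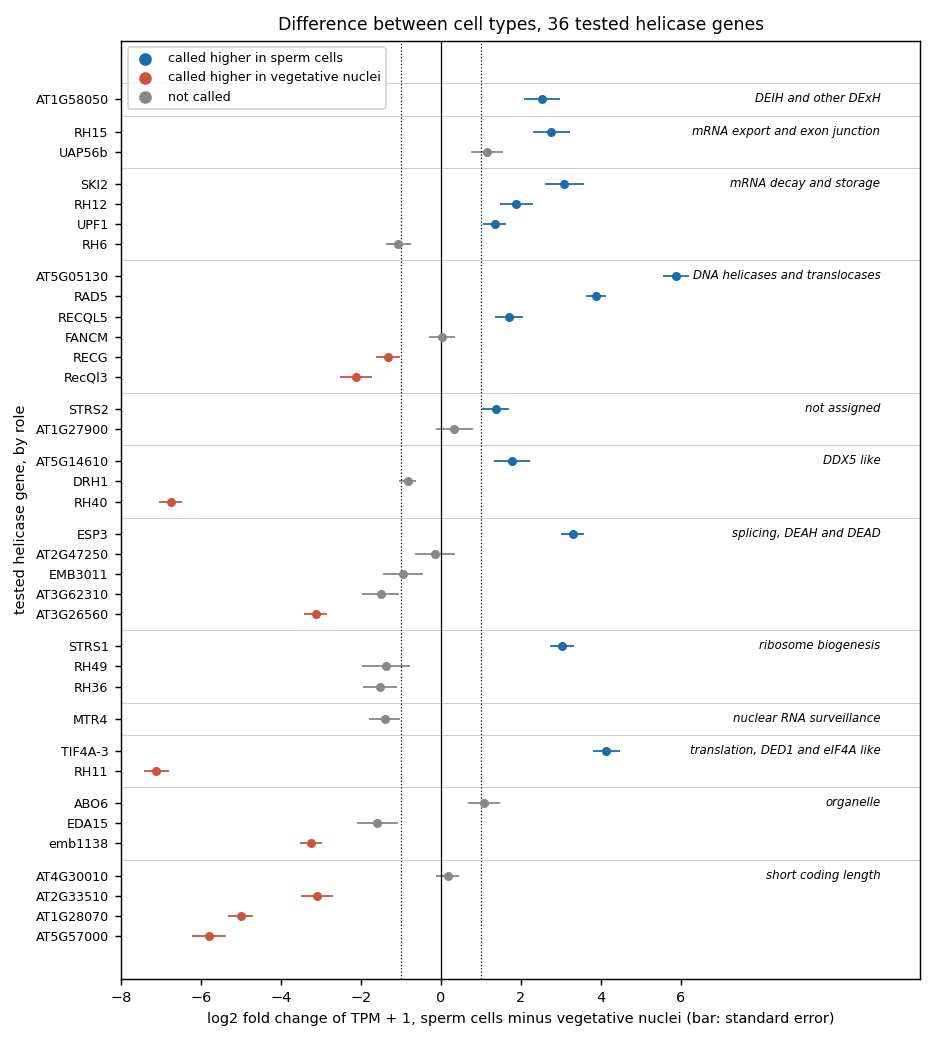
Log2 fold change of TPM + 1 (x axis, SC minus VN) of the 36 tested helicase genes (y axis), grouped by role, with bars of 1 standard error, dotted lines at a change of 1 in size and colours for the call. The 2 tested export genes and 3 of the 4 of mRNA decay lie to the right, 3 of the 4 tested short members to the left, and values run from -7.12 for RH11 to 5.87 for AT5G05130.

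By motif, 12 of the 30 tested members with a DExD or DExH run were called higher in SCs and 6 higher in VN, beside 29.2% and 35.6% of all tested genes, shares that other scalings moved to 31.7% to 35.5% and 28.1% to 32.7%. DEAD runs gave 5 and 4 calls among 13 tested, and DEAH runs 4 and 2 among 11. The 250 bases before the start of each called gene were read from the same reference and searched on both strands for 4 short sequences: the TATA element TATAAA, the myb-type word AACCG and the E2F-type words TTTCCCGC and TTTGGCGC. TATAAA was present upstream of 8 of the 13 genes higher in SCs and 5 of the 9 higher in VN, where 47.3% of 27444 genes hold it. AACCG was found for 1 of 13 and 3 of 9, with 23.2% of all genes holding it. TTTCCCGC and TTTGGCGC, held by 0.619% and 0.361% of all genes, were found for none of the 22. A match describes letters and is no binding site. The windows of the most changed gene of each direction with no other annotated gene in the window are shown, both from chromosome 3 of TAIR10.1, with TATAAA on either strand in capitals (RH11 on the plus strand, chr3:21639728-21639977; SKI2 on the minus strand, chr3:17298223-17298472).

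RH11, upstream: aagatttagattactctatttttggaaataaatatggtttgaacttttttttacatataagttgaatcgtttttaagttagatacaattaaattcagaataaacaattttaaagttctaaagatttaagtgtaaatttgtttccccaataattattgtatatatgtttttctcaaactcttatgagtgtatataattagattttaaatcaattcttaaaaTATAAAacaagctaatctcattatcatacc
SKI2, upstream: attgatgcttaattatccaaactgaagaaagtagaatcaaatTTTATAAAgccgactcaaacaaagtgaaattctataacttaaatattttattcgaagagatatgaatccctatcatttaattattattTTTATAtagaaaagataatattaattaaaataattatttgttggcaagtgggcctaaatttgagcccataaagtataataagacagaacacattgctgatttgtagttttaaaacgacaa

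Helicases work inside larger assemblies, so lists of their partner genes were described in the same way. In nonsense-mediated decay UPF2 and UPF3, which activate UPF1, were both called higher in SCs, as UPF1 was. UPF2 was at 23.1, 24.3 and 23.8 TPM in SCs and 3.77, 0.432 and 4.38 TPM in VN (log2 fold change 2.89, adjusted p = 0.000903). UPF3 was at 96.5, 90.3 and 116 TPM in SCs and 24.5, 5.54 and 10.05 TPM in VN (log2 fold change 3.05, adjusted p = 0.000414).

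The decapping list held 12 genes, of which 3 (RH8 among them) were higher in SCs, 2 higher in VN, 4 tested without a call and 3 under the filter, with a median log2 fold change of 0.15. DCP1 was at 20.9, 13.9 and 19.9 TPM in SCs against 5.79, 6.997 and 2.79 TPM in VN. DCP5-L was at 117, 100.3 and 109 TPM in SCs and 11.7, 11.6 and 4.87 TPM in VN. VCS, the scaffold of the decapping complex, was at 19.9, 18.6 and 8.81 TPM in VN and 0, 0.00564 and 0 TPM in SCs. Among the PAT1-type decapping activators, PATH1 was higher in VN (log2 fold change -2.84) and PAT1 was not called (0.76). Genes of 1 complex thus lay on both sides. The DCP2 gene itself reached 0.669 TPM at most.

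SKI2 works with SKI3 and SKI8. SKI3 was at 24.4, 34.1 and 26.7 TPM in VN and 1.57, 1.76 and 1.4998 TPM in SCs (log2 fold change -3.48, adjusted p = 7.88e-06), the opposite direction to SKI2. SKI8 reached 0.224 TPM at most. Of the 14 genes of the exosome and SKI list 11 were under the filter, and RRP6L2, a nuclear exosome nuclease, was higher in SCs at 14.3, 15.9 and 12.9 TPM against 2.71, 4.14 and 3.13 TPM.

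Around UAP56, all 12 genes of the TREX export list were tested, with 3 called higher in SCs, 3 higher in VN and a median of 0.29. ALY3, an adaptor that UAP56 loads onto mRNA, was at 3171, 2859 and 2318 TPM in VN and 85.5, 64.7 and 69.3 TPM in SCs (log2 fold change -5.23, adjusted p = 2.7e-07). ALY1 was at 38.8, 38.6 and 37.6 TPM in SCs and 18.7, 15.4 and 12.8 TPM in VN (1.26, adjusted p = 0.0014). THO7A and THO6 were higher in SCs (4.28 and 3.68), THO2 and TEX1 higher in VN (-2.45 and -1.88). In the exon junction complex, MAGO was higher in SCs (160, 181 and 121 TPM against 41.3, 39.9 and 36.6 TPM). Its partner Y14 was higher in VN (37.0, 37.8 and 26.6 TPM against 3.11, 3.54 and 3.39 TPM), as was PYM, which disassembles the complex (49.6, 68.2 and 48.5 TPM against 0.647, 0.130 and 0.367 TPM). The helicase of that complex, EIF4A-III, was at 27.5, 28.3 and 25.9 TPM in SCs and 15.5, 51.5 and 17.1 TPM in VN and was not called (0.18, adjusted p = 0.724). PYM overlaps AT1G04847 on the opposite strand by 339 bases.

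The spliceosome list held 14 genes, 7 called higher in SCs, 4 higher in VN, 1 tested without a call and 2 under the filter, with a median of 1.32. PRP31, which holds the tri-snRNP together, was at 79.4, 72.5 and 93.9 TPM in SCs and 3.12, 0 and 0.729 TPM in VN (log2 fold change 5.42). BRR2B, the helicase that unwinds the U4 and U6 RNAs, was at 95.9, 61.1 and 67.1 TPM in VN and 0.787, 0.688 and 0.513 TPM in SCs (-5.48). Its relative BRR2A was under the filter. The 2 genes of PRP8, the protein at the catalytic centre, split: PRP8A was at 2.38, 3.41 and 3.16 TPM in SCs and at most 0.249 TPM in VN, and PRP8B was at 18.1, 18.6 and 11.2 TPM in VN and 2.19, 3.09 and 2.31 TPM in SCs. These lists were chosen with earlier results of these data known, and their counts stand beside the 29.2% and 35.6% of all tested genes as a description.

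**Figure D5:**
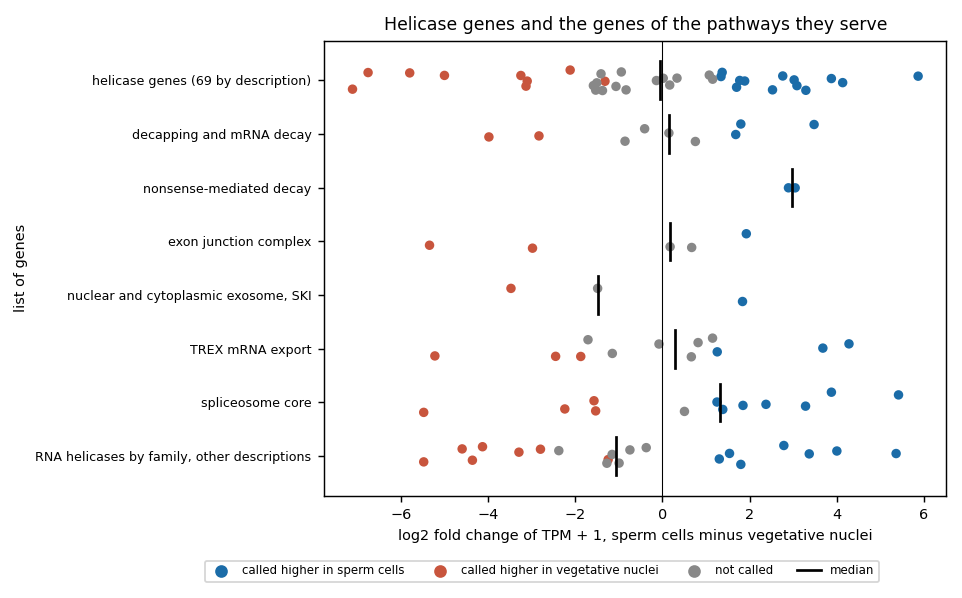
Log2 fold change of TPM + 1 (x axis, SC minus VN) of the tested genes of each list (y axis), 1 point a gene, with a black bar at the list's median; vertical scatter within a list has no meaning. Each list but nonsense-mediated decay holds genes called in both directions. The medians of the lists run from -1.49 for the exosome list, with 3 tested genes of 14, to 2.97 for nonsense-mediated decay, with 2 tested genes.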

How the data were processed

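The authors trimmed reads (Trim Galore), aligned them to TAIR10 (Hisat2), built transcripts (StringTie), joined these with Araport11 and quantified them (Salmon). They deposited 1 table of TPM per gene and library, with 150-base unstranded paired reads behind it. How transcripts were summed into genes is not given in the sources used here. The labels do not name the sorting batch of a replicate or separate plants, so p values measure only the spread between these 3 libraries a group.

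Genes with at least 1 TPM in at least 2 of 6 libraries were fitted with limma 3.58.1 (R 4.3.3) on log2(TPM + 1) with a mean-variance trend, adjusted over all 10955 genes and called below 0.01 where the absolute log2 fold change was above 1. Sequences and coordinates come from the RefSeq TAIR10.1 assembly (Python 3.11.15, Biopython 1.88). Short members are those under 250 codons.

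Values per library are given for called members, the 5 highest of each cell type, RH8 and some of the called partners. They are also given for most members of sets of related genes or of roles with at most 4 members. Other called partners are given by log2 fold change or only counted. A few not called are named beside them, after their values were seen. Members, lists and tests were chosen with earlier results of these data known. A gene of the nonsense-mediated decay list was left out, for a reason unrelated to its values, and is not reported here. The alternatives were a pseudocount of 0.1, other filters and scalings, no trend, a replicate block and each library left out.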

Additional observations from a re-analysis of the deposited data

How the results depend on the processing

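The number of helicase genes called higher in SCs ran from 9 to 15 over the 14 alternatives and the number higher in VN from 7 to 13, around 13 and 9, and the count over all genes from 5845 to 7411, around 7105. Leaving out a library gave 9 to 13 and 7 to 13 helicase calls. Same-numbered SC and VN libraries did not deviate together (correlation of deviations 0.009, -0.035 and -0.019). Libraries of unlike number gave similar values, from -0.037 to 0.051. Weak correlations cannot exclude a shared sort, and the labels do not name one, so whether the numbers pair the samples is not known. With the replicate block 12 and 9 helicase genes and 6927 genes in all were called. The block removed the calls of RECG (adjusted p = 0.0188) and STRS2 (0.0166) and added AT3G62310 (0.0041). The median log2 fold change of the tested members, -0.06, moved to 0.25 with the filter in at least 3 libraries, 0.46 with quantile normalization, 0.46 with median centring and 0.56 without the 10 highest genes. Leaving out a library gave medians from -0.42 to 0.55. The set of members tested changed with the filter and with the library left out, from 30 to 62. Expressed members numbered 28 and 35 in SCs and VN at an average of 0.5 TPM, and 20 and 20 at 1 TPM in all 3 libraries.

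Of 500 single-gene values under the alternatives 442 kept their direction and side of the threshold, 27 lost and 21 gained a call. The sign turned in 10, none of them a call: DRH1 with quantile normalization (0.21), AT2G47250 with a pseudocount of 0.1 (0.068), median centring (0.38) or the 10 highest genes removed (0.21), and 4 genes without 1 library. Those ranged from -0.16 to 0.37 for FANCM, -0.083 to 0.73 for AT1G27900, -0.038 to 0.38 for AT4G30010 and -0.49 to 0.054 for AT2G47250. RECG lost its call with median centring (log2 fold change -0.80, adjusted p = 0.0395), and without a filter RECQL5 (0.0206), RH12 (0.0132), STRS2 (0.0475), RECG (0.0288) and AT5G14610 (0.0259) lost theirs, where 22718 genes were tested. A pseudocount of 0.1 removed AT5G14610 (0.0175) and added RH36, MTR4 and RH6. The cause of the other changes was not tested. The unknown depth limits every value under about 1 TPM.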

Other observations

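The words of a description miss many helicases. A list of 29 RNA helicase genes known by family but described in other words held 20 tested genes, RH8, RH26 and BRR2B among them. Of the 20, 7 were called higher in SCs and 7 higher in VN, beside 29.2% and 35.6% of all tested genes. Their median log2 fold change was -1.08, beside -0.55 over all tested genes. RH42, also called RCF1, a splicing helicase of cold response, was at 320.4, 188 and 193 TPM in VN and 10.1, 8.90 and 6.53 TPM in SCs. It was higher in each VN library (log2 fold change -4.60, standard error 0.29, limma adjusted p = 2.44e-06). RH24 was at 31.2, 39.0 and 21.9 TPM in VN and 0.611, 0.705 and 0.225 TPM in SCs, and RH21, which acts in the tri-snRNP, was at 10.8, 15.0 and 12.5 TPM against 0.157, 0.290 and 0.792 TPM. Their log2 fold changes were -4.37 and -3.30, and neither overlapped between the cell types.

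On the SC side RH31 was at 32.3, 34.9 and 34.8 TPM and at 0, 4.42 and 0.909 TPM in VN (log2 fold change 4.01, standard error 0.56, adjusted p = 0.000276). RH39, a chloroplast helicase needed for the hidden break in the large ribosomal RNA, was at 8.52, 11.6 and 8.23 TPM in SCs and listed at 0 in all VN libraries (3.37, adjusted p = 1.72e-05). ISE1, or RH47, another organelle helicase, was on the other side, at 32.3, 17.8 and 19.7 TPM in VN and 2.97, 3.09 and 1.35 TPM in SCs (-2.80, adjusted p = 0.000153).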
